A study of Capra hircus with 2 samples.

Results

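Skin T cells of the Liaoning cashmere goat were described in 2 single-cell libraries, 1 named CT-LCG, from a goat with coarse fibre, and 1 named FT-LCG, from a goat with fine fibre. They were chosen by their measured values: among the cells that the authors kept, a T cell had at least 2 unique molecular identifiers (UMIs, each standing for 1 captured RNA molecule) of CD3E and CD3G together, made up at least 2 per 10000 of its UMIs with these genes, and had less than 200 per 10000 from KRT14, KRT5, KRT1 and KRT10. This left 71 T cells of 13051 kept cells, 36 of 3443 in CT-LCG (1.05%, 95% Clopper-Pearson interval 0.733 to 1.45) and 35 of 9608 in FT-LCG (0.364%, 0.254 to 0.506).

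Scapular skin was taken in anagen, the growing phase of the hair follicle, from goats described as healthy, minced, digested into single cells, cleared of red blood cells and dead cells, and loaded for droplet-based 3′ sequencing. A goat, its library and its fibre type cannot be told apart, so no test was run, and intervals of shares (Clopper-Pearson) and of levels (exact Poisson) cover counting error only. The names CT-LCG and FT-LCG come from the deposited list of cells, and the sample labels do not give the fibre type. A level is the number of UMIs of a gene per 10000 UMIs of the set of cells, and the CT-LCG T cells held 175926 UMIs and the FT-LCG T cells 164637.

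T cells recognise antigen through a receptor made of a pair of variable chains, either alpha with beta or gamma with delta, held at the cell surface by the CD3 chains that carry the signal into the cell. In skin, many T cells stay in the tissue for long periods. Some of them release IL-17A and IL-17F, cytokines that act on keratinocytes in defence at the barrier and in inflammation, and ruminants are known for a large share of gamma delta T cells.

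The rule was met step by step. At least 1 UMI of CD3E or CD3G was found in 56 kept CT-LCG cells and 127 kept FT-LCG cells, at least 2 in 38 and 46, and 37 and 43 of these also reached 2 per 10000. The keratin limit then left out 1 CT-LCG cell, at 212 per 10000, and 8 FT-LCG cells, at 204 to 1034 per 10000, while the members with the highest keratin values were at 141 and 166.5. Just inside the lower limit were 3 CT-LCG and 5 FT-LCG members with exactly 2 CD3 UMIs, and just outside were 13 and 19 cells with 1 CD3 UMI and keratins below the limit. The plot of CD3 against keratins shows that most of the excluded FT-LCG cells lay at high keratin values.

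**Figure D1:**
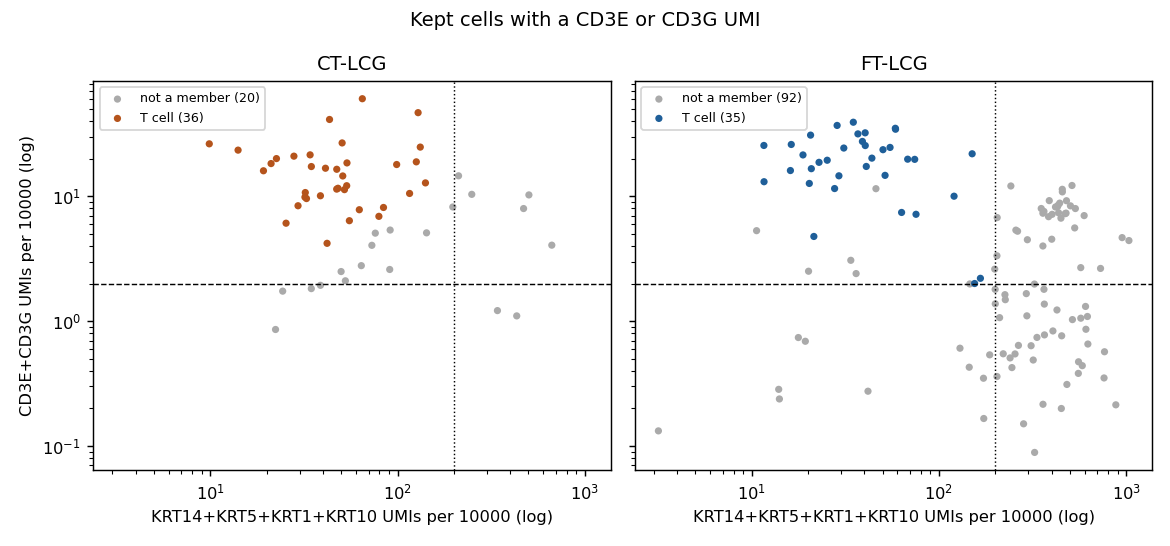
CD3E and CD3G UMIs per 10000 (vertical, log scale) against UMIs of 4 keratins per 10000 (horizontal, log scale) in each kept cell with a CD3E or CD3G UMI, with the limits of the rule as lines; coloured points are the 36 CT-LCG and 35 FT-LCG T cells. The coloured points show what the rule selected, from 2 to 60.6 CD3 UMIs per 10000.

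The label was checked on genes outside the rule. Of 8 other T cell genes, among them CD3D, CD247, CD2, CD5, CD6, LCK and LAT, a member carried a median of 3 in either library, and none were found in 1 CT-LCG and 3 FT-LCG members. The CT-LCG cell and 1 of the FT-LCG cells had both CD3E and CD3G, with 33 and 11 IL17F UMIs. The remaining 2 FT-LCG cells went against the label. They had 14970 and 9067 UMIs, no CD3E, JAML or PTPRC, 3 and 2 CD3G UMIs, and 196 and 65 UMIs of KRT5, and the deeper of them also held 450 UMIs of S100A2, a gene of basal keratinocytes. The main values that rest on these cells are given with and without the 3 FT-LCG members that lacked all 8 genes. No barcode was shared between T cells of the libraries, and 11 barcodes were shared among all kept cells.

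T cells had 1209 to 10007 UMIs in CT-LCG (median 4727) and 1863 to 14970 in FT-LCG (median 4190), with medians of 1571 and 1422 genes detected. Among the other kept cells the median was 2262 UMIs for CT-LCG, against 6151 for FT-LCG, so the T cells were deeper than their library in CT-LCG and shallower in FT-LCG. CD3E, a signalling chain of the receptor complex, had 0 to 19 UMIs per cell (median 5) in CT-LCG and 0 to 17 (median 5) in FT-LCG. CD3G, its partner chain, had 0 to 8 (median 2) and 0 to 13 (median 3). Both genes chose the cells, so these values are a description.

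IL17F was carried by 18 of 36 CT-LCG T cells (50.0%, 32.9 to 67.1) and by 9 of 35 FT-LCG T cells (25.7%, 12.5 to 43.3). In CT-LCG the 18 cells held 418 UMIs, with 112, 71, 37, 35 and 33 in the highest and 1 UMI in each of the lowest 3. In FT-LCG the 9 cells held 51 UMIs, at 12, 11, 10, 8, 4, 2, 2, 1 and 1. The ranges of the carriers overlapped, but 11 CT-LCG cells and 3 FT-LCG cells had 10 or more UMIs. The level over all T cells was 23.8 per 10000 (21.5 to 26.1) in CT-LCG against 3.10 (2.31 to 4.07) in FT-LCG. The highest CT-LCG cell alone gave 26.8% of the UMIs, and without it the CT-LCG level was 18.4. After thinning each cell to 1000 UMIs, which sets every cell to the same depth, the expected shares were 40.8% in CT-LCG beside 15.4% in FT-LCG. In keratin-high cells, which should lack the gene, 0.334% of CT-LCG cells (median depth 1921 UMIs) and 0.0765% of FT-LCG cells (median 6292) had an IL17F UMI, and the thinned shares were 0.0149% and 0.0302%. Of these cells, 349 of 2693 in CT-LCG and 891 of 7845 in FT-LCG had fewer than 1000 UMIs and were left out of the thinned shares, 3 of them in CT-LCG with IL17F. With these shallow cells as they were, the shares were 0.124% and 0.0268%. No T cell had fewer than 1000 UMIs. Cells chosen in the same way by CPA3 and MS4A2, by AIF1 and CSF1R or by PECAM1 and PLVAP, with T cells taken out, had 0 IL17F UMIs in both libraries. The CT-LCG T cell with 112 IL17F UMIs also met the PECAM1 and PLVAP rule, with 2 PECAM1 UMIs and no PLVAP UMI beside 12 of CD3E and 3 of CD3G.

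IL17A, the neighbour of IL17F on the chromosome with no protein-coding gene between them, had 84 UMIs in 6 CT-LCG cells and 12 UMIs in 3 FT-LCG cells. All of these cells also carried IL17F. IL26, a cytokine known to act on epithelial cells, was in 12 CT-LCG and 9 FT-LCG T cells, with 21 and 14 UMIs, and 5 of these cells in each library also had IL17F. IL22, which promotes keratinocyte growth and repair, had 12 UMIs in 3 CT-LCG cells, 10 of them in 1 cell, and 11 UMIs in a single FT-LCG cell, and no T cell chosen by the rule had both IL22 and IL17F. At least 1 of these 4 cytokines was found in 26 CT-LCG T cells (72.2%, 54.8 to 85.8) and in 14 FT-LCG T cells (40.0%, 23.9 to 57.9).

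**Figure D2:**
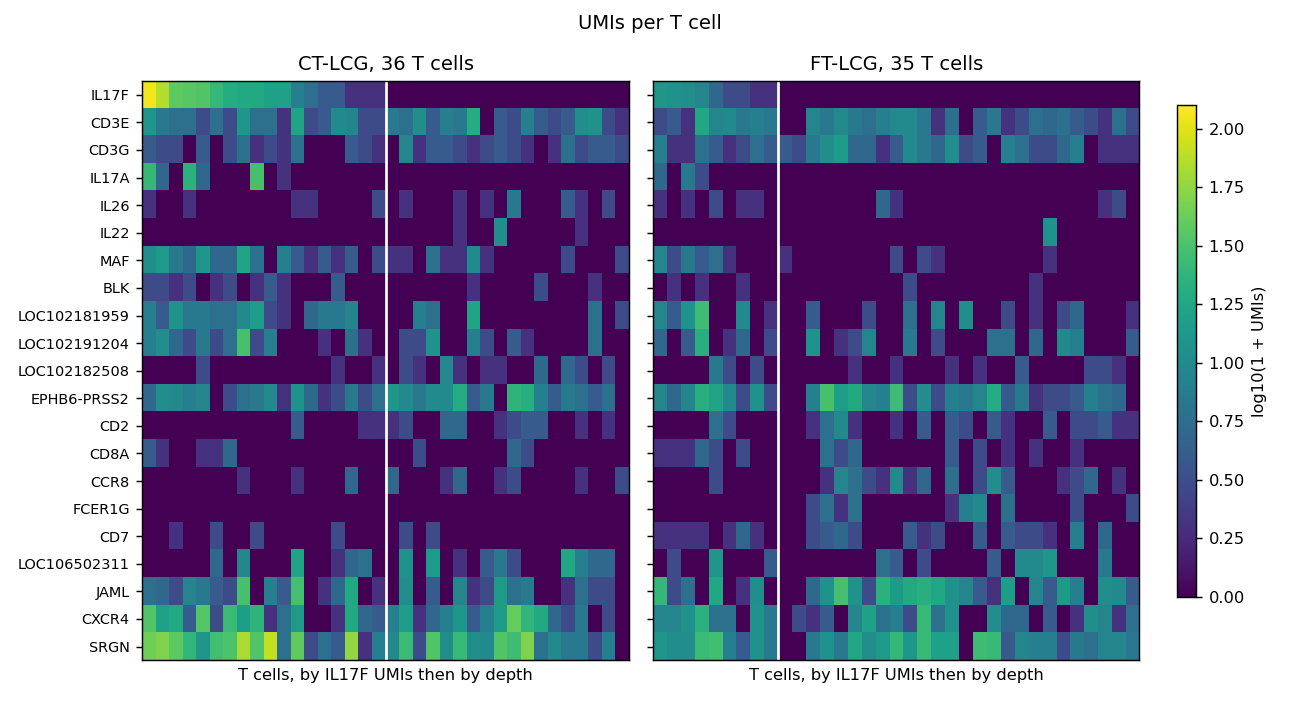
UMIs of selected genes in each T cell, as log10(1 + UMIs), with cells in columns ordered by IL17F and then by depth; the white line divides cells with IL17F (18 of 36 in CT-LCG, 9 of 35 in FT-LCG) from those without. The row EPHB6-PRSS2 sums 3 receptor constant regions. IL17A appears only left of the line, and FCER1G only in FT-LCG and right of it.

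The cells that carried IL17F and the other T cells of the same library were described side by side, as cells of 1 library are not replicates and the carriers were chosen by a measured gene. MAF, a transcription factor of IL-17-producing T cells, was in 16 of 18 carriers and 9 of 18 other cells in CT-LCG, at 9.80 and 2.88 per 10000, and in 6 of 9 and 5 of 26 in FT-LCG, at 5.76 and 0.578. IL1R1, a receptor for IL-1 that supports IL-17 production, was in 10 and 3 of the CT-LCG cells and in 7 and 11 of the FT-LCG cells, at levels of 1.56 and 0.500 and of 4.61 and 1.07. FURIN, a protease that processes proproteins, stood at 5.63 in carriers and 0.375 in the other cells in CT-LCG and at 2.30 and 0.825 in FT-LCG. Beside these and IL17A, the genes with the largest such ratio in both libraries were TMEM57, IFNGR2 (a chain of the interferon gamma receptor), OTUD4, WBP2, ST3GAL1 and ARHGAP12, each with 10 to 18 UMIs in the T cells of either library except ST3GAL1, with 22 in CT-LCG. BLK, a Src family kinase known from B cells and IL-17-producing gamma delta T cells, was in 10 carriers and 3 other cells in CT-LCG and in 3 and 2 in FT-LCG. IL23R, a chain of the IL-23 receptor, had 2 UMIs in CT-LCG T cells and 0 in FT-LCG T cells. Carriers had a median of 5401 UMIs and the other cells 4088 in CT-LCG, and 3717 and 4232 in FT-LCG. In keratin-high cells of CT-LCG and FT-LCG, 29.6% and 21.4% had a MAF UMI, 10.6% and 14.1% an IL1R1 UMI and 43.2% and 53.0% an IFNGR2 UMI. IFNGR2 stood in T cells at 0.518 and 0.515 times its level in the other kept cells. The parts of depth and of RNA free in the suspension in these values were not tested.

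Of the list of 30 measured IL-17 genes, 21 were tested in CT-LCG (at least 20 UMIs over the kept cells), of which 13 were at least 4-fold higher in T cells than in the other kept cells and had at least 10 T cell UMIs, and 1, CCL20, was at least 4-fold lower, which was called where at least 10 UMIs would have been found at the level of the other cells. In FT-LCG 18 were tested, with 8 higher and 1 lower, again CCL20. Over all genes, 3.06% of 13345 were higher and 2.77% lower in CT-LCG, and 2.2% of 15078 were higher and 1.55% lower in FT-LCG. A gene passes the limit of 10 UMIs more easily where it is high, so these counts describe the cells and no more. The same limits apply to every count of higher or lower genes given for a list, and a gene with fewer than 10 T cell UMIs is not counted as higher whatever its ratio. The median log2 ratio of the list was 2.98 in CT-LCG against 2.85 in FT-LCG, beside 0.69 and 0.94 over all genes tested. Within the list, CCR6, a homing receptor that responds to CCL20, had 8 UMIs in 6 CT-LCG cells and 0 in FT-LCG, where a count of 0 allows a level of up to 0.182 and up to 8.57% of cells with a captured UMI. CSF2 had 4 and 9 UMIs, LTB 12 and 17, and TNF, the broadly acting inflammatory cytokine, 25 and 22 UMIs. AHR, a ligand-activated transcription factor of barrier lymphocytes, had 16 UMIs in either library, BATF, a factor needed for IL-17-producing cells, 17 and 9, and PTGER4, a prostaglandin receptor, 22 and 23. RORA, a nuclear receptor, had 37 UMIs in 19 CT-LCG cells and 14 in 9 FT-LCG cells, at 2.95 and 2.24 times its level in the other kept cells, and STAT3, which relays IL-23 signals, had 37 and 17 UMIs at 2.52 and 1.88 times. IL6R had 10 and 13 UMIs. IL17RE, IRF4, SOX13, LTA and ADAM12 had 0 to 2 UMIs, and IL17C, IL21 and TNFSF11 had 0 in both libraries. IL21 and TNFSF11 had 0 UMIs in all kept cells, so they could not mark any cell here.

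The receptor genes have no chain names in these data, but the goat RefSeq table (ARS1.2) marks constant regions and variable segments of antigen receptors, and it was used for these classes and for neighbouring genes only. This group was chosen after the levels had been seen. In mammals the beta chain genes lie between EPHB6 and trypsin-like genes, the delta genes lie within the alpha locus next to DAD1, and gamma genes lie near AMPH or STARD3NL. No chain was assigned here to a gene on this basis. The 3 constant regions between EPHB6 and PRSS2 (LOC102179835, LOC108635873 and LOC108635874) were in 33 CT-LCG T cells (91.7%) with 236 UMIs and in 32 FT-LCG T cells (91.4%) with 278 UMIs, at 13.4 (11.76 to 15.24) and 16.9 (14.96 to 18.99) per 10000. In keratin-high cells 4.01% and 0.752% had a UMI of these regions.

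Between SALL2 and DAD1, the constant region LOC102181959 lies inside the span of the constant region LOC102182508. Since they overlap, their reads may not be fully separable. LOC102181959 had 128 UMIs in 20 CT-LCG T cells (55.6%, 38.1 to 72.1) and 97 in 16 FT-LCG T cells (45.7%, 28.8 to 63.3), and LOC102182508 had 31 UMIs in 13 cells and 22 in 11. They were carried together by 3 CT-LCG cells and by no FT-LCG cell. LOC102191204, annotated as protein-coding, lies beside the constant regions near AMPH with no protein-coding gene in between, and was in 21 CT-LCG and 18 FT-LCG T cells, with 115 and 97 UMIs. Of the 20 CT-LCG cells with LOC102181959, 16 also carried LOC102191204, against 5 of the 16 without, and the same counts in FT-LCG were 14 of 16 and 4 of 19. The annotated constant regions near AMPH had 13 UMIs in 5 CT-LCG cells and 2 UMIs in 2 FT-LCG cells, and those near STARD3NL had 1 UMI in CT-LCG and 22 UMIs in 3 FT-LCG cells, 19 of them in 1 cell.

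IL17F and the receptor regions overlapped in part. In CT-LCG, 14 of the 18 cells with both LOC102181959 and an EPHB6 to PRSS2 region had IL17F, holding 385 of the 418 UMIs, while 3 of the 15 cells with an EPHB6 to PRSS2 region alone had it, with 9 UMIs. In FT-LCG the counts were 6 of 15 cells with 44 UMIs and 3 of 17 cells with 7 UMIs. All 6 CT-LCG and 3 FT-LCG cells with IL17A had both regions. CD2, an adhesion molecule of T cells, was in 12 of the 15 CT-LCG cells with an EPHB6 to PRSS2 region alone and in none of the 18 with both, and in FT-LCG in 13 of 17 and 4 of 15. A region without a UMI in a cell may have been missed at this depth.

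**Figure D3:**
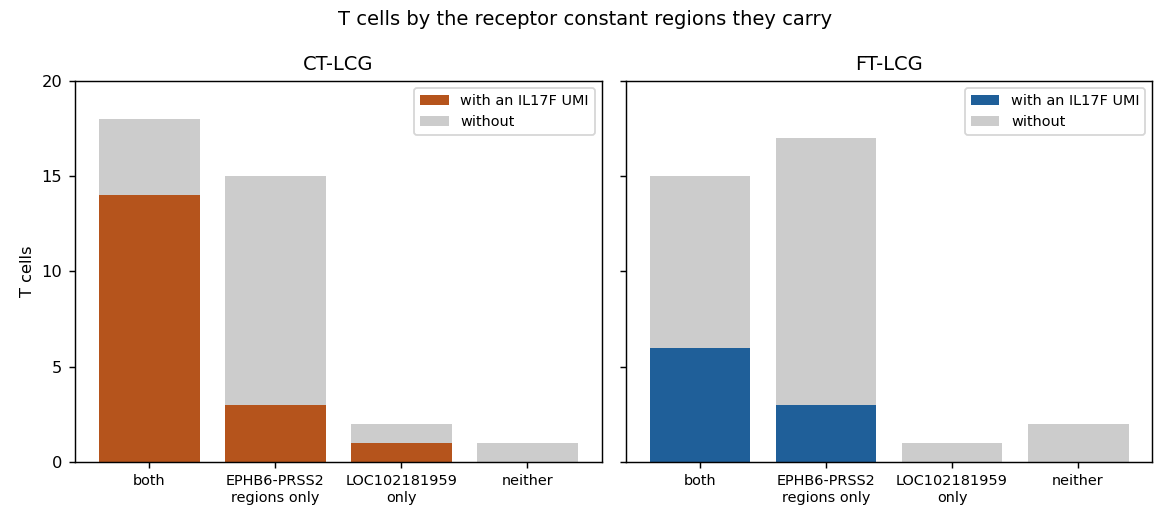
Number of T cells (vertical) by the receptor constant regions of which they held a UMI: both LOC102181959 and a region between EPHB6 and PRSS2, only one of these, or neither, with the coloured part marking cells with IL17F. In CT-LCG 14 of the 18 cells with both had IL17F, and 3 of the 15 with an EPHB6 to PRSS2 region alone.

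Of 146 variable segments in the matrix, 13 had a UMI in CT-LCG T cells and 9 in FT-LCG T cells. LOC108636895, a segment that also lies between SALL2 and DAD1, had 24 UMIs in 10 CT-LCG cells and 1 UMI in FT-LCG, and all 10 CT-LCG cells also carried LOC102181959 and 8 of them IL17F. LOC102191415, a constant region beyond JAG2, where the immunoglobulin heavy chain genes lie in mammals, had 21 UMIs in 15 CT-LCG T cells and 28 in 19 FT-LCG T cells. The other 4 regions there had 0 UMIs in T cells of either library, as did 9 of the 10 B and plasma cell genes in FT-LCG and all 10 in CT-LCG.

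All 5 genes that were given as markers of these cells (CD3E, CD3G, IL17F, CXCR4 and JAML) and all 4 measured chains of the receptor complex were at least 4-fold higher in T cells in both libraries, and CD3E and CD3G chose the cells. The remaining chains of the complex were found in fewer cells. CD3D had 22 UMIs in 15 CT-LCG cells and 40 in 22 FT-LCG cells, and CD247, the zeta chain, 34 and 42 UMIs in 18 cells of either library. Of 39 measured genes of T cell signalling and surface, 25 were tested in each library. Of these, 21 were at least 4-fold higher in T cells in each library, 20 of them in both, where 3.06% and 2.2% of all genes were higher. The most abundant was ETS1, a transcription factor of lymphocytes, at 9.83 per 10000 in CT-LCG beside 8.32 in FT-LCG. PTPRC (CD45, on all leukocytes) was in 31 and 24 cells, CORO1A, an actin regulator, in 29 and 26, and RAC2, a GTPase of blood cells, in 21 and 31. ICOS, a costimulatory receptor, had 95 UMIs in 23 CT-LCG cells and 37 in 17 FT-LCG cells. BCL11B, needed for T cell development, stood at 3.13 and 2.13, which was 1.49 and 0.983 times its level in the other kept cells.

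CD4, the coreceptor of helper T cells, had 0 UMIs in the T cells of both libraries, and only 1 UMI in all the other kept cells, so its absence does not set the T cells apart. CD8A was in 8 CT-LCG cells with 18 UMIs and in 14 FT-LCG cells with 30, and CD8B, the partner that forms the heterodimer, in 2 and 7 cells with 2 and 18 UMIs. Both CT-LCG cells with CD8B also had CD8A, as had 5 of the 7 in FT-LCG. CD8A and IL17F were in the same cell in 5 CT-LCG and 6 FT-LCG cells. In the list of 8 measured gamma delta and innate-like genes, 6 were tested in CT-LCG against 4 in FT-LCG. Of these, 3 and 1 were at least 4-fold higher, where 3.06% and 2.2% of all genes were, with MAF the most abundant. GPR65, a proton-sensing receptor, had 18 and 10 UMIs.

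FCER1G, a signalling adaptor shared by Fc receptors and some innate-like lymphocytes, was in 10 FT-LCG T cells with 39 UMIs (2, 5, 1, 5, 1, 7, 9, 5, 2 and 2) and in no CT-LCG T cell, where a count of 0 allows a level of up to 0.171. None of the 10 cells carried IL17F, IL26 or LOC106502311, all 10 carried JAML, and 7 each carried CD8A, CD7, CCR8 and CCL5. Of all 35 FT-LCG T cells, 9 carried IL17F, 9 IL26 and 11 LOC106502311. JAML was in 28 of the 35, CD8A in 14, CD7 in 21, CCR8 in 17 and CCL5 in 12. A difference of the 10 cells from these shares was not tested. FCER1G is also abundant in myeloid and mast cells. The AIF1 and CSF1R cells of FT-LCG had 78 UMIs of it beside 216 of TYROBP, and the CPA3 and MS4A2 cells 25 beside 13, and TYROBP had 0 UMIs in the T cells of both libraries. Without the 3 members that lacked the 8 genes, FCER1G stood at 2.81 in FT-LCG. CD7, a surface glycoprotein of T and NK cells, had 11 UMIs in 6 CT-LCG cells and 49 in 21 FT-LCG cells. NCR3, an activating receptor, had 5 and 18 UMIs, while NCAM1, a marker of NK cells, had 0 in both. NCR1 and KLRF1, further NK cell markers, had 0 UMIs in all kept cells, so they could not mark any cell here. Of 11 measured genes of NK and innate lymphoid cells, 6 were tested in each library, and 1 of these was at least 4-fold higher in CT-LCG beside 3 in FT-LCG, where 3.06% and 2.2% of all genes were.

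CCR8, a chemokine receptor of skin-homing T cells, had 21 UMIs in 10 CT-LCG cells and 61 in 17 FT-LCG cells. It was in the same cell as IL17F in 3 CT-LCG cells and 1 FT-LCG cell. LOC106502311, a protein-coding gene without a name between CSF2 and PDLIM4, had 106 UMIs in 16 and 66 in 11 cells. It shared a cell with IL17F in 6 and 3 cells, and all 3 CT-LCG cells and the FT-LCG cell with IL22 carried it.

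JAML, a junctional adhesion molecule through which T cells bind epithelial cells, had 0 to 30 UMIs per cell (median 2.5, in 27 of 36) in CT-LCG and 0 to 29 (median 8, in 28 of 35) in FT-LCG. Its level was 10.3 (8.84 to 11.9) in CT-LCG against 17.9 (15.9 to 20.1) in FT-LCG, and 21.1 in FT-LCG without the 3 members that lacked the 8 genes. CXCR4, the receptor of the chemokine CXCL12, had 0 to 39 UMIs (median 6.5, in 32 cells) and 0 to 25 (median 5, in 28 cells), at 21.3 (19.2 to 23.5) and 12.4 (10.8 to 14.3). The ranges per cell overlapped for both genes.

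Genes of tissue residency and homing included several of the most abundant ones. Of 28 measured, 21 and 22 were tested and 11 in each library were at least 4-fold higher in T cells, 9 of them in both, where 3.06% and 2.2% of all genes were higher. RGS1, a regulator that dampens chemokine signalling, was in 34 of 36 and 31 of 35 cells, at 28.9 and 18.0 per 10000. CD44, a hyaluronan receptor, was in 33 and 34 cells at 16.4 and 19.8, 2.22 and 3.63 times the level in the other kept cells. CD69, which holds T cells in tissue, had 77 UMIs in 19 cells and 29 in 11, CXCR6 11 and 17 UMIs, and ITGAE (CD103, which binds E-cadherin on keratinocytes) 16 and 12 UMIs. Of the 12 genes of circulating and naive T cells, 9 and 11 were tested, and of those with at least 10 T cell UMIs IL7R, the receptor for IL-7, was at least 4-fold higher, with 121 UMIs in 29 CT-LCG cells and 32 in 17 FT-LCG cells. KLF3, with 9 and 4 UMIs, was at least 4-fold lower in both, where 2.77% and 1.55% of all genes were lower. CCR7, which guides T cells to lymph nodes, had 0 UMIs in CT-LCG beside 5 in FT-LCG, and TCF7, a transcription factor of naive and memory T cells, 5 and 2.

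Among receptors of the TNF family, TNFRSF18 (GITR) was in 32 cells of either library at 19.6 and 11.1 per 10000, and TNFRSF1B, a TNF receptor, in 30 and 28 cells at 16.3 and 9.60. TNFRSF9 (4-1BB), which appears on activated T cells, was concentrated in fewer cells, with 112 UMIs in 9 CT-LCG cells and 79 in 14 FT-LCG cells, and 35 and 20 in the highest. TNFRSF25 had 50 and 14 UMIs, and TNFRSF4 7 and 21. Of the 15 regulatory genes, 11 and 12 were tested. At least 4-fold higher were 5 in each library and 4 in both, where 3.06% and 2.2% of all genes were. TNFRSF18 was the most abundant, but FOXP3, which defines regulatory T cells, had 1 UMI in CT-LCG against 0 in FT-LCG, CTLA4 6 and 2, and IL10 0 and 1. TNFRSF1A, a receptor of TNF found on most cells, had 6 and 7 UMIs, 0.278 and 0.258 times its level in the other kept cells. Of 30 cytokine receptors, 24 and 23 were tested, 9 and 7 of which were at least 4-fold higher and 2 and 0 lower. Without the 3 members that lacked the 8 genes, 1 was lower in FT-LCG. The shares over all genes were 3.06% and 2.2% higher and 2.77% and 1.55% lower. IL2RG, the shared chain of several cytokine receptors, stood at 6.14 and 3.04, IL2RA at 2.16 and 0.850, and IL2RB at 1.36 and 1.09.

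Genes of cytotoxic and type 1 T cells were mostly near 0. CCL5, a chemokine, had 108 UMIs in 20 CT-LCG cells and 63 in 12 FT-LCG cells, with 25 and 21 in the highest cell, and NKG7, a granule membrane protein, 15 and 27 UMIs, and these were the 2 at least 4-fold higher with at least 10 UMIs in both libraries, of 18 measured genes with 4 tested in CT-LCG and 5 in FT-LCG. GZMA and EOMES had 2 UMIs in CT-LCG beside 0 in FT-LCG, PRF1 2 in each, and TBX21 1 and 0. IFNG had 0 UMIs in all kept cells. Among 13 type 2 genes, 8 of which were tested in each library, CCR8 was the gene with at least 10 T cell UMIs and a 4-fold higher level in each library, and AREG was at least 4-fold lower. Below that limit, CCR4, another receptor of skin-homing T cells, had 5 and 8 UMIs, and IL17RB, a receptor for IL-25, 8 and 2. GATA3, the regulator of type 2 cells, stood at 2.84 and 3.22, which was 1.42 and 1.51 times its level in the other kept cells, and IL4, IL5 and IL9 had 0 UMIs. IL5 and IL9 had 0 UMIs in all kept cells, and IL4 was in only 1 other CT-LCG cell. Their absence does not set the T cells apart. Of 9 inhibitory receptors and related genes, 2 and 4 were tested, and TOX, a transcription factor of chronically stimulated T cells, stood at 39.4 and 13.9 times its level in the other kept cells, with 14 and 9 UMIs, so that it passed the limit of 10 UMIs in CT-LCG and not in FT-LCG. PDCD1 (PD-1) had 8 and 6 UMIs and LAG3 0 in both. Beside the counts of these 3 lists, 3.06% and 2.2% of all genes were at least 4-fold higher and 2.77% and 1.55% lower.

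At least 3 of 8 mitotic genes were detected in 3 T cells of either library (8.33% and 8.57%), beside 1.91% of the other kept cells in CT-LCG against 5.53% in FT-LCG. These shares were not set to equal depth. Median UMIs were 4727 in T cells and 2262 in other kept cells of CT-LCG, and 4190 and 6151 in FT-LCG. MKI67 was in 3 FT-LCG T cells, among them the member with 9067 UMIs that went against the label. Of 26 cell cycle genes, 3 in CT-LCG and none in FT-LCG were at least 4-fold higher with at least 10 T cell UMIs, and the difference between the libraries was not tested. STMN1, a microtubule regulator of dividing cells, had 85 UMIs in 17 CT-LCG cells, 27 of them in 1 cell, and 57 in 17 FT-LCG cells. Immediate early and stress genes, which respond to tissue digestion as well as to stimulation, summed to 232 and 233 per 10000 in T cells and to 249 and 241 in the other kept cells. Of 29, DUSP2, a phosphatase of activated leukocytes, at 4.26 and 4.01, and TNFAIP3, a brake on NF-kappaB signalling, with 87 and 79 UMIs, were the 2 at least 4-fold higher in both libraries. IER3 was at least 4-fold lower in both, and ATF3 in CT-LCG. The shares over all genes were 3.06% and 2.2% higher and 2.77% and 1.55% lower, and a difference of these small counts from them was not tested.

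Markers of other cell types were at or near 0 for most lists. At least 4-fold higher with at least 10 T cell UMIs were 2 mast cell genes in either library, 1 and 2 macrophage and dendritic genes, and none of the 10 B cell, 8 endothelial, 8 fibroblast, 7 melanocyte, 7 hair or 5 neutrophil genes measured. Among all genes tested in CT-LCG and FT-LCG, 3.06% and 2.2% were at least 4-fold higher and 2.77% and 1.55% lower. CPA3, MS4A2, KIT, HDC and FCER1A, which define mast cells, had 0 UMIs in both, and the mast cell list's sum of 47.2 and 27.0 per 10000 came from SRGN and RAC2, which lymphocytes also express. SRGN, the core protein of granule proteoglycans, was the most abundant of these genes, with 785 and 379 UMIs, 44.6 and 23.0 per 10000, and 57.8 and 46.4 in the CPA3 and MS4A2 cells. Among 17 macrophage and dendritic genes, CSF1R, C1QA, C1QB, C1QC, SPI1 and TYROBP had 0 UMIs in both, and CD74 29 and 5 UMIs, so that the list summed to 3.41 and 4.01, with CD74 and FCER1G the highest. The lists of fibroblast genes summed to 0.909 and 0.243, endothelial genes to 0.227 and 0.182, and melanocyte genes to 0.171 and 0, with LUM, PLVAP, VWF, CDH5, TYRP1 and DCT at 0. Neutrophil genes summed to 2.05 and 0.182, against 21.1 and 1.11 in the other kept cells, with S100A8 the highest, and 2 and 1 of them were at least 4-fold lower (2 and 0 without the members that lacked the 8 genes), as was 1 fibroblast gene in CT-LCG.

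**Figure D4:**
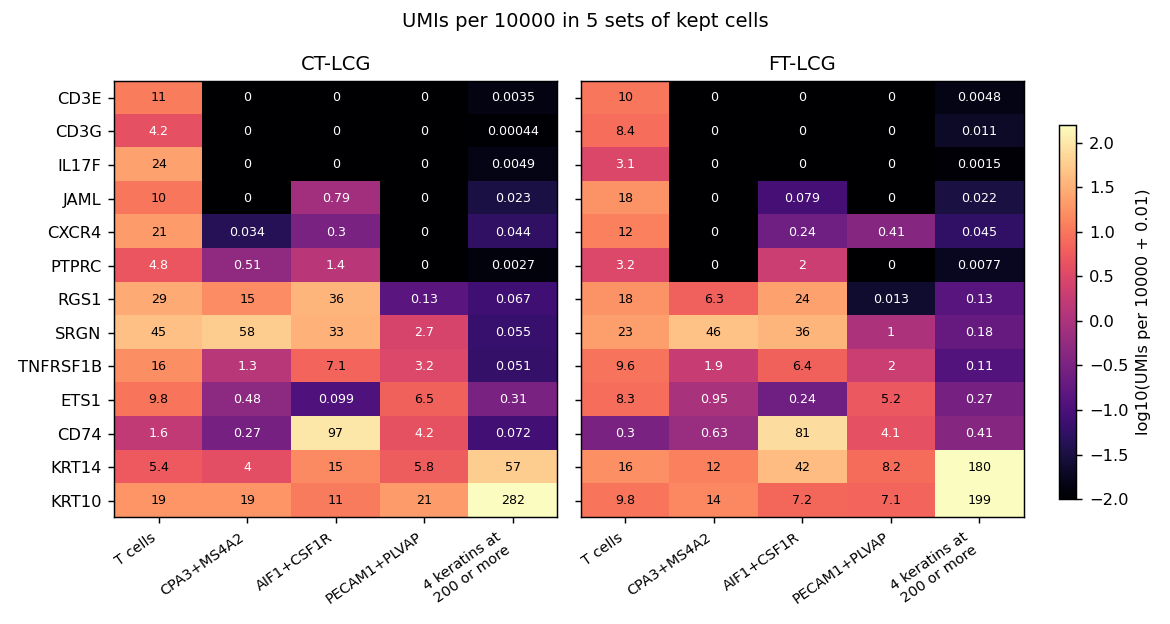
Levels (UMIs per 10000, printed in each cell of the grid and coloured as log10 of the level + 0.01) in T cells, in cells chosen by CPA3 and MS4A2, by AIF1 and CSF1R or by PECAM1 and PLVAP, and in cells with at least 200 per 10000 of 4 keratins. CD3E, CD3G and the keratins were used by the rule; with T cells taken out, IL17F was at 0 in the 3 marker-chosen sets of either library, while RGS1 and SRGN were also high in the CPA3 and MS4A2 and the AIF1 and CSF1R cells.

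Keratinocyte RNA was present in every T cell, with at least 9.88 UMIs per 10000 of the 4 keratins in CT-LCG beside 11.6 in FT-LCG. The 14 measured keratinocyte genes summed to 81.7 per 10000 in CT-LCG T cells and 132 in FT-LCG T cells, against 862 and 831 in the other kept cells. Of them, 13 and 12 were at least 4-fold lower, beside 2.77% and 1.55% of all genes. The list includes keratins that the rule itself limited, so the low sums and part of these counts follow from the choice of cells and are a description. Without the 3 FT-LCG members that lacked the 8 genes the FT-LCG sum was 74.3, below that of CT-LCG, and all 14 were at least 4-fold lower. KRT10 was the highest in CT-LCG, with 333 UMIs over all 36 cells, and S100A2 in FT-LCG, with 562 UMIs, of which 450 were in 1 cell, and KRT14 without those members. Without the 3 members that lacked the 8 genes, S100A2 stood at 7.43 in place of 34.1 in FT-LCG and KRT5 had 97 UMIs in place of 361. The ratio of KRT14 to KRT5 was 1.73 in CT-LCG T cells and 2.00 in keratin-high cells, and in FT-LCG 0.751 in T cells, 1.61 without the 3 members and 1.81 in keratin-high cells. Hair and inner root sheath genes summed to 7.62 and 3.89, against 8.55 and 24.8 in the other kept cells, with TCHH the highest in CT-LCG and KRT25 in FT-LCG, and 0 and 4 of 7 were at least 4-fold lower. How much of the keratin in the T cells came from RNA free in the suspension was not tested.

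The genes that stood highest in T cells against the other kept cells, by the smaller ratio of the libraries, were led by CD3E, which the rule used. Then came IL2RB (1260 and 1553 times higher), TNFRSF9 (2206 and 1136), IL26 (at least 1103, as no other CT-LCG cell held a UMI, and 1812) and LOC106502311 (1285 and 1068), where the ratios rest on few UMIs outside the T cells and have wide counting intervals. Further down were CD40LG, the ligand that helper T cells use, with 23 and 10 UMIs, IKZF3, a lymphocyte transcription factor, GIMAP1, a GTPase of lymphocytes, CD8A, TNFSF14, a TNF family cytokine, and PTPRCAP, a partner of CD45. LOC108637283, a long non-coding RNA between UBXN11 and AIM1L, was the most abundant of the leading genes, in 32 CT-LCG cells with 0 to 33 UMIs (median 13) and in 33 FT-LCG cells with 0 to 64 UMIs (median 25), at 798 and 1361 times its level in the other kept cells. LOC102183941, between MAGOHB and GABARAPL1, had 20 UMIs in 13 and 70 in 25 cells, and LOC102176695, between ACTR1B and TMEM131, 30 and 19 UMIs. In all, 408 genes in CT-LCG against 331 in FT-LCG were at least 4-fold higher, 238 of them in both.

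Between the T cells of the libraries, 2279 genes had at least 20 UMIs in all. Of these, 12.8% were at least 2-fold higher in CT-LCG (291 genes) and 8.73% at least 2-fold higher in FT-LCG (199 genes), and 108 and 42 of them differed as much and in the same direction in the other kept cells. The share of all 2279 genes that differed so in the other kept cells was not computed, so these overlaps are a description. IL17F was 7.67 times higher in CT-LCG (5.72 to 10.5) by summed UMIs and 4.98 times by the means over cells, 19.9 and 4.00 per 10000. IL17A was 6.55 times higher (3.56 to 13.2). In the other kept cells, where few cells held them, the ratios were 51.7 and 111. IL7R was 3.54 times higher in CT-LCG, MAF 3.42 times, CD69 2.48 times and ICOS 2.40 times. In the other kept cells these genes were also higher in CT-LCG, at 9.02, 1.93, 4.46 and 11.96 times. Outside the CT-LCG T cells, keratin-high cells held 4 of 44 IL7R, 1585 of 1813 MAF, 4 of 45 CD69 and 3 of 35 ICOS UMIs. The other kept cells include 13 CT-LCG and 19 FT-LCG cells with 1 CD3 UMI and keratins below the limit. The part of T cells missed by the rule in these ratios, and in those of IL17F and IL17A, was not tested. CD7 stood at 0.210 times its FT-LCG level in CT-LCG, LOC102183941 at 0.267, CCR8 at 0.322, LOC108637283 at 0.490 and JAML at 0.574, and in the other kept cells these stood at 0.395, 0.615, 2.17, 0.836 and 2.57. Of the genes that chose the cells, CD3E was at 1.12 (0.907 to 1.38) and CD3G at 0.502 (0.373 to 0.670), and of the other T cell genes CD3D was at 0.515 (0.291 to 0.887) and CD2 at 0.526 (0.316 to 0.861).

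**Figure D5:**
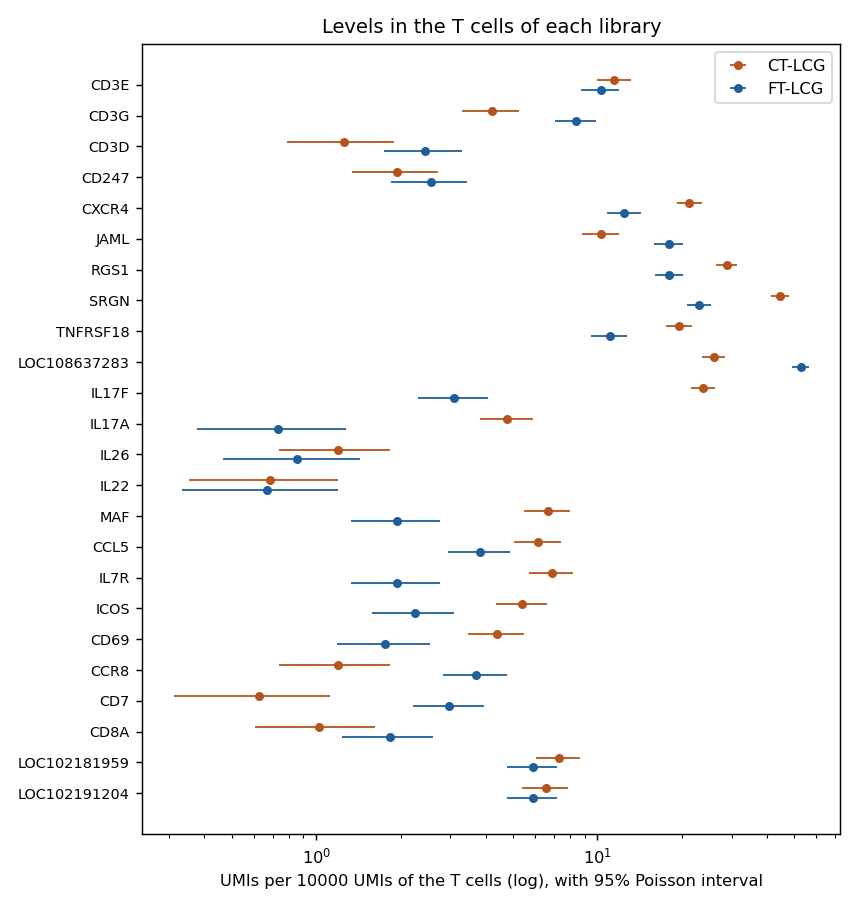
Levels in the T cells of each library (UMIs per 10000, log scale) with 95% Poisson intervals, which cover counting error only and not differences between goats. IL17F stood at 23.8 and 3.10 and JAML at 10.3 and 17.9 in CT-LCG and FT-LCG, while of the genes that chose the cells CD3E had overlapping intervals and CD3G, at 4.21 and 8.38, did not.

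Of the genes with the largest library ratios, several had a ratio of like size in the other kept cells, and others had most of their UMIs in 1 cell. LOC108633505 was 35.2 times higher in CT-LCG in T cells and 34.5 times in the other kept cells, and LOC102180443, a transcribed pseudogene in 34 of 35 FT-LCG T cells and 3 CT-LCG T cells, was at 0.0169 and 0.0101. LOC108633164, LOC102185917, LOC102191166 and LOC100860961 likewise had ratios of 30.9, 17.8, 13.6 and 0.0292 in T cells and of 15.3, 21.2, 12.3 and 0.0354 in the other kept cells. TFPI2, a protease inhibitor, had 165 UMIs in FT-LCG T cells, 162 of them in 1 cell, and 3 UMIs without the 3 members that lacked the 8 genes. LOC102188618 had 100 UMIs with 98 in 1 cell, and 2 without those members, while ADIRF had 44 with 22 in 1 cell, and 21 in 10 cells without them, beside 2 UMIs in CT-LCG T cells. LOC108636895, the variable segment with 24 UMIs in 10 CT-LCG cells and 1 in FT-LCG, had 5 UMIs in the other kept CT-LCG cells and 0 in those of FT-LCG.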

How the data were processed

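The authors deposited counts of UMIs per gene and barcode made with Cell Ranger 3.0.2, without normalization and with both libraries in 1 matrix, and a table that assigns each of the 13051 kept cells to its library, all with at least 501 genes. The goat build and annotation used for counting were not stated in the sources read, and of 27137 features 27103 matched the RefSeq table (ARS1.2), from which biotypes and neighbours were taken. The submitters' processing notes also name bcl2fastq and Seurat 3.1.1.

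The members, gene lists and alternatives were chosen with earlier results of these data known. Genes were named by a rule that takes all marker, receptor, coreceptor and IL-17 genes, up to the leading 6 and the defining markers of each other list, of which examples are given, the 20 genes with the largest smaller ratio to other kept cells and at least 10 T cell UMIs in each library, the 5 each way with the largest library ratio among genes with at least 20 UMIs, and the 10 with the largest carrier ratio. Any other gene was named after its values were seen, and constant regions were added for their biotype. A gene with 0 UMIs in the comparison was given 3 counts, and 0 shares were limited by 3 counts. Levels have exact Poisson and shares Clopper-Pearson intervals at 95%. Thinned shares are the expected shares at 1000 UMIs per cell, without cells below that depth. With 1 library per goat no test was run. No doublet caller was run, and 1 CT-LCG member also met the PECAM1 and PLVAP rule. T cell receptor chain genes under their human symbols, ZAP70, KLRB1, GZMB and LYZ were not analysed here. Some members of the lists are not reported here. The ratio of levels with its interval and the thinning were tested on simulated data, and the other steps were not. Python 3.11.15, numpy 2.4.6, scipy 1.17.1, pandas 2.3.3 and matplotlib 3.10.9 were used. Alternatives were other limits of the rule, other cells left out, thinning, means over cells and free RNA subtraction.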

Additional observations from a re-analysis of the deposited data

Results flagged for a closer look

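IL17F was also found in cells that were not counted as T cells. In CT-LCG, 18 kept cells outside the T cells held 185 IL17F UMIs, 30.7% of the IL17F UMIs of the kept cells in that library, and 165 of them were in 6 cells with exactly 1 CD3E or CD3G UMI, 1 short of the limit. The highest of these held 81 IL17F and 30 IL17A UMIs, with 2 CD247 UMIs and 50.0 keratin UMIs per 10000, and another held 9 IL17F and 19 IL22 UMIs. A further 2 cells had 3 or more IL17F UMIs and no CD3 UMI, and 10 cells had 1 IL17F UMI and no CD3 UMI, with a median of 349 keratin UMIs per 10000. In FT-LCG, 7 kept cells outside the T cells held 11 IL17F UMIs, 5 of them in 1 cell with 1 CD3 UMI. Among 2659 CT-LCG barcodes outside the list of kept cells, 7 held 7 IL17F UMIs, 1 each, and 2 of 1589 in FT-LCG held 2. The counts of 185, 11 and 7 UMIs lay above 3, the most that a count of 0 allows, and the 2 UMIs in FT-LCG barcodes outside the list did not.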

How the results depend on the processing

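The numbers of T cells stayed within 1.5 times under each limit tried on CD3, keratins and barcodes, and the shares with IL17F within the main interval under each limit tried on CD3E and CD3G, keratins and depth: 31 to 45 and 30 to 43 T cells, and 40.8% to 50.0% and 15.4% to 29.0% with IL17F. For the IL17F level, the CT-LCG value of 23.8 per 10000 moved to 19.9 as a mean over cells, beside 4.00 in FT-LCG, and to 18.4 without the cell with the most IL17F, and the FT-LCG value of 3.10 moved to 1.94 without the keratin limit, where 8 more cells without IL17F enter. The number of genes at least 4-fold higher depends on the least UMIs required by construction: with 5 UMIs it was 623 for CT-LCG against 517 for FT-LCG, and with 20 UMIs 246 and 196. Leaving out members with none of 8 T cell genes, chosen after seeing the data, gave 35 and 32 T cells, 48.6% and 25.0% with IL17F, levels of 22.6 and 2.89, and 407 and 327 genes, and a sum of keratinocyte genes of 74.3 in place of 132 per 10000 in FT-LCG. The CT-LCG member left out and 1 of those in FT-LCG had CD3E and CD3G and held 33 and 11 IL17F UMIs. The lower IL17F values come from leaving out these carriers, so they are not values of a purer set of T cells. No paired analysis was possible because each fibre type has 1 library and no test was run. With 36 and 35 cells, a gene with 0 UMIs may still be in up to 8.33% and 8.57% of cells with a UMI, and genes under about 10 UMIs could not be ordered.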
